A study of Rattus norvegicus with 18 samples.

Results

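The question addressed here is how the effect of the fungicide chlorothalonil on rat kidney cells changed between 24 h and 72 h of exposure. The treatment effect at a time is the mean log2 value of the chlorothalonil arrays minus that of the DMSO arrays of the same time, and the change of effect is the effect at 72 h minus the effect at 24 h. A change of effect is also the change over time of the chlorothalonil arm minus that of the DMSO arm, so for each gene the text says which arm moved. The 12 of 18 arrays whose titles name 24 h or 72 h enter it, 3 in each of 4 groups. The first group is NRK-52E cells exposed to 1.1 µM chlorothalonil in 0.1% DMSO for 24 h and the second is cells in 0.1% DMSO alone for 24 h. The other groups are the same 2 treatments at 72 h. All groups share the line, a single established line labelled as proximal tubule epithelium of an Osborne-Mendel rat, growth to confluence before exposure, serum-containing medium and the DMSO vehicle. Per the labels, the dose was set as the one that inhibits by 10% at 72 h.

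Chlorothalonil reacts with thiol groups of proteins and glutathione. Cells that meet such electrophiles can switch on heat shock chaperones, which refold damaged proteins, the proteasome, which degrades them, and oxidant defence genes under the factor NRF2. Sterol and fatty acid genes answer to SREBP factors, which respond to the sterol content of membranes. Cell division genes are switched on late in the cell cycle and fall in resting cultures.

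Replicate arrays had correlations of 0.9934 to 0.9976 over the 9149 genes tested, and no pair of arrays held the same values. The first 2 principal components of the 12 arrays held 58.8% and 21.5% of the variance and separated the 4 groups. Per the labels, 3 studies were run at each time, and whether the times share them is not given. For the change of an arm over time, time and study thus cannot be told apart. Each effect is taken within a time, but the change of effect compares the 2 times. There, an effect that differs between studies cannot be told apart from one that differs with time. Spiked poly-A control transcripts, which are added to the RNA in fixed amounts, averaged log2 8.97 in DMSO replicate 1 at 24 h and up to 10.3 in that group, 10.6 to 11.2 in the chlorothalonil arrays of 24 h, 10.5 to 10.9 in those of 72 h and 9.93 to 10.1 in the DMSO arrays of 72 h. The 3′ minus 5′ difference of the actin control probe sets, a sign of RNA integrity, was 1.03 to 1.16 and 1.23 to 1.32 (log2) in the chlorothalonil and DMSO arrays of 24 h and 1.66 to 1.81 and 1.51 to 2.02 in those of 72 h. The part of these differences in the results was not tested. In bulk RNA, fewer cells that make a transcript and less transcript per cell cannot be told apart.

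**Figure D1:**
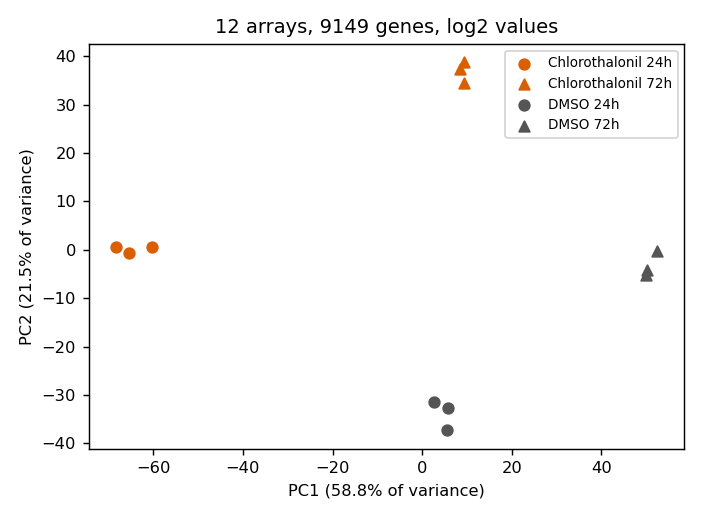
Each point is 1 array placed by the first 2 principal components of the log2 values (share of variance on each axis). Colour gives the treatment (orange, chlorothalonil; grey, DMSO) and shape the time (circles, 24 h; triangles, 72 h). The arrays of each group lie together and the 4 groups lie apart.

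Of the markers of the proximal tubule, Lrp2, Cubn, Slc34a1, Anpep and Slc22a6 were at background, log2 4 or less, on all 12 arrays. Ggt1 was above it on 9 arrays and Aqp1 on 3, all of them DMSO arrays of 72 h. The epithelial markers Krt8, Tjp1 and Ocln were above log2 4 on all 12 arrays and Cdh1, Cdh16 and Krt18 on 0. The fibroblast markers Col1a1, Col3a1 and Postn were above it on 12, Pdgfrb on 2 (log2 2.86 to 4.92) and Pdgfra, Thy1, Dcn and Lum on 0. The mean level over the 8 fibroblast markers was log2 4.49 to 4.67 in the chlorothalonil arrays of 24 h, 4.77 to 4.87 in the DMSO arrays of 24 h, 4.96 to 5.09 in the chlorothalonil arrays of 72 h and 5.62 to 5.81 in the DMSO arrays of 72 h. Of the other markers tested for leukocytes, endothelium, podocytes and distal nephron, Cd14, Synpo and Wt1 were above background on all 12 arrays, Tek on 5 and Cd3e on 1.

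The effect of chlorothalonil differed between the times in 5274 of 9149 genes, 57.6% of those tested (limma, Benjamini-Hochberg adjusted p below 0.05), with 2551 genes (27.9%) higher at 72 h than at 24 h and 2723 (29.8%) lower. At least 2-fold changes of effect numbered 922 higher (10.1%) and 771 lower (8.43%). The median change of all genes was −0.015 in log2. Scaling to the poly-A controls of each array made that median 0.389, with median effects of −1.02 at 24 h and −0.60 at 72 h over all genes, and 1469 genes were called, 1253 of them higher (85.3%, against 48.4% on the deposited scale). Without DMSO replicate 1 at 24 h the poly-A scaled median was −0.028, with 2181 genes called, 1126 of them higher. Below, poly-A scaled values are given where they end the call of a change of effect or turn the sign of a list median. An arm's own call was lost on that scale for Mvd, Acss2, Sqle, Insig1, Asns, Derl1, Nqo1, Gapdh and Rps9 under chlorothalonil and for Dnajb1, Bop1, Noc2l, Psmd3, Cdk1, Zc3h6, Ephx1, Ephx2, Hspa5 and Rps9 in DMSO. List medians on that scale are to be read against these medians of all genes.

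The chlorothalonil arm was the larger mover in 3526 of the 5274 genes (66.9%) and the DMSO arm in 1748 (33.1%). The chlorothalonil arm alone changed over time in 1837 genes (34.8%), the DMSO arm alone in 871 (16.5%), both in the same direction but to different extents in 1451 (27.5%) and both in opposite directions in 1053. In 62 genes (1.2%) neither arm's own change passed the threshold. Over all genes tested the chlorothalonil arm changed in 6667 (72.9%, with 39.5% rising and 33.3% falling) and the DMSO arm in 5550 (60.7%, with 36.3% rising and 24.3% falling). Counts over a list are to be read against these shares and those of the change of effect. Where an arm had to move at least 2-fold, 1255 genes fell to the chlorothalonil arm alone, 413 to the DMSO arm alone, 192 to both in one direction, 26 to both in opposite directions and 3388 to neither.

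Sorted by the effects themselves, 1515 genes (28.7%) had an effect at 24 h alone and 1084 (20.6%) at 72 h alone. In 1030 genes the effect kept its sign and was larger at 24 h, and in 536 it kept its sign and was larger at 72 h. In 1059 genes (20.1%) the effect passed the threshold at both times with opposite signs, 628 from below DMSO to above it and 431 the other way. Chlorothalonil and DMSO arrays differed in 6418 genes (70.1%) at 24 h, with 39.1% above DMSO and 31.1% below, and in 5881 (64.3%) at 72 h, with 37.2% above and 27.0% below. The 3 arrays of the 2 groups compared did not overlap in 75.6% of all genes for the chlorothalonil arm, 66.5% for the DMSO arm, 73.0% for the effect at 24 h and 70.5% for the effect at 72 h.

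**Figure D2:**
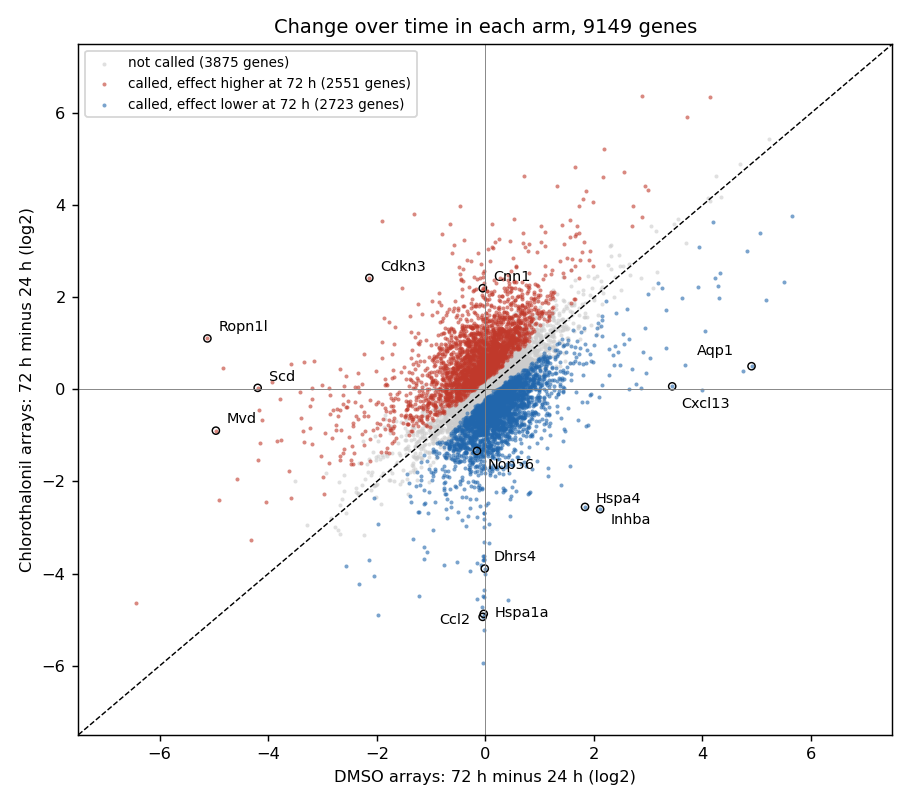
Each of the 9149 genes is placed by its change from 24 h to 72 h in the DMSO arrays (horizontal) and in the chlorothalonil arrays (vertical), both in log2. On the dashed line both arms change alike; red genes lie above it (2551, effect higher at 72 h) and blue genes below it (2723, effect lower at 72 h). Hspa1a and Ccl2 lie straight below the centre, where the chlorothalonil arm alone fell, and Scd and Mvd far to the left, where the DMSO arm fell.

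Heat shock chaperones were higher in treated cells at 24 h and most had come down at 72 h. Of 29 genes of heat shock proteins and targets of the heat shock factor HSF1, 23 had a lower effect at 72 h and 2 a higher one, against 29.8% and 27.9% of all genes. The chlorothalonil arm fell in 27 of the 29 (33.3% of all genes did) while the DMSO arm fell in 9 and rose in 8, and the larger move was in the chlorothalonil arm for 22 of the 25 called. The median of the list fell by 0.80 in the chlorothalonil arm and by 0.01 in the DMSO arm (log2), from an effect of 1.08 at 24 h to 0.29 at 72 h. On the poly-A scale the median change of effect was −0.23 in place of −0.63, with 3 genes lower and 1 higher, and the median effects were 0.004 and −0.38, so the sign turned at 72 h.

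Hspa1a, the inducible 70-kDa chaperone, stood at log2 10.77, 10.09 and 10.11 in the chlorothalonil arrays of 24 h and at 4.53, 6.05 and 5.76 in those of 72 h. In DMSO it was at background at both times, 2.03 to 2.13. The chlorothalonil arm fell 29.3-fold (change of effect −4.84, SE 0.47, adjusted p = 6.69e-07, n = 3 per group), and its arrays did not overlap. At 24 h the effect was at least 80.0-fold and at 72 h at least 2.73-fold, so Hspa1a was still above background in all 3 chlorothalonil arrays of 72 h.

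Hsph1, an HSP110 chaperone that exchanges nucleotides on HSP70, fell from 13.89, 13.67 and 13.56 to 12.14, 12.34 and 12.28 in the chlorothalonil arm and was steady in DMSO, at 10.61, 10.80 and 10.70 and then 10.73, 10.73 and 10.81. All treated arrays remained above all DMSO arrays, and the change of effect was −1.502 (SE 0.11, adjusted p = 5.15e-08), or −1.10 on the poly-A scale (adjusted p = 0.0892). Dnajb1, an HSP40 partner of HSP70, went from 13.26, 12.99 and 13.07 to 11.45, 11.61 and 11.65 under chlorothalonil and from 11.03, 11.15 and 11.02 to 11.59, 11.61 and 11.50 in DMSO. The treated and DMSO arrays overlapped at 72 h, and the effect had gone from 2.04 to 0.01. A second probe set of Dnajb1 gave a change of effect of −1.145 in place of −2.035, with the DMSO arm at −0.312 (log2). Hspa4, another HSP110-type chaperone, crossed over. It fell from 8.61, 8.67 and 8.76 to 6.06, 6.49 and 5.83 under chlorothalonil and rose from 7.43, 7.64 and 7.21 to 9.05, 9.38 and 9.35 in DMSO, a change of effect of −4.39 (SE 0.25, adjusted p = 2.82e-09).

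Promoter sequences were read for the letters of the heat shock element, to which HSF1 binds. Its motif, 3 units GAA, TTC and GAA in a row with a pair of free bases (NN) between neighbours, was read on both strands in the 250 bases before the start of each gene in RefSeq (build GRCr8). It was found in 3 of 26 heat shock genes with a promoter in the table (11.5%), in 0.4% of the 7746 tested genes with one and in 0.6% of all 27457 promoters. The 2 of them with the largest called change of effect are printed, with the motif in capitals. Hsph1 is at chr12:10427118-10427367 on the plus strand and Hspd1, the mitochondrial chaperonin, at chr9:64084038-64084287 on the minus strand, where 2 matches overlap.
Hsph1: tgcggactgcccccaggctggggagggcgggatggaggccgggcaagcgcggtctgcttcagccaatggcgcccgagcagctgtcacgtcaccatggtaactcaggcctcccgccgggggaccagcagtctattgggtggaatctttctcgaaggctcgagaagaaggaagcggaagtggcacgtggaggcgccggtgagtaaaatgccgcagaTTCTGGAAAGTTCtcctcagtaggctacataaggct
Hspd1: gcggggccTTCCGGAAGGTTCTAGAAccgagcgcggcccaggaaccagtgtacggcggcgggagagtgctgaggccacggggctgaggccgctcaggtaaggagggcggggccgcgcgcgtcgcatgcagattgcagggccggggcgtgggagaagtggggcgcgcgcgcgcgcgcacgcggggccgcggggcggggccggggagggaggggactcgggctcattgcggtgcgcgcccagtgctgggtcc

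Genes that answer to growth and stress signals within minutes fell in the same arm. Of 29 immediate early and AP-1 genes, 16 had a lower effect at 72 h and 2 a higher one, against 29.8% and 27.9% of all genes. In the chlorothalonil arm 17 fell (33.3% of all genes did) and in DMSO 8, near the 24.3% of all genes. The median effect went from 1.29 at 24 h to 0.47 at 72 h, or from 0.21 to −0.20 on the poly-A scale, where 4 genes were lower and 1 higher. Fosl1, an AP-1 subunit, stood at log2 8.99, 8.94 and 8.74 in the chlorothalonil arrays of 24 h and at 4.33, 5.20 and 6.13 in those of 72 h, a 12.8-fold fall with no overlap (change of effect −3.65, SE 0.64, adjusted p = 0.000201). DMSO arrays were at background at both times, 2.05 to 2.11. Egr1, a zinc finger factor of the same class, fell from 12.75, 12.19 and 12.17 to 10.69, 10.64 and 10.69 under chlorothalonil, down to the DMSO level of 72 h (10.61, 10.60 and 10.71). Fos itself ended below DMSO, at 11.15, 11.12 and 11.27 against 11.53, 11.48 and 11.38, after 12.45, 11.97 and 12.27 against 11.30, 11.34 and 11.29 at 24 h. Its change of effect, −1.20, was −0.80 on the poly-A scale (adjusted p = 0.259).

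Atf3, a stress-induced factor of the ATF family, had the opposite sign. Treated arrays fell from 11.62, 11.17 and 11.44 to 9.55, 9.38 and 9.59, but DMSO arrays fell further, from 5.80, 6.76 and 5.55 to 3.02, 2.99 and 3.09. The effect therefore went up by 1.10 (SE 0.33, adjusted p = 0.0104). That gain rests on values below background in DMSO at 72 h: with those set to log2 4 it was 0.13.

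Several secreted signals fell in the treated cells. Ccl2, a chemokine for monocytes, stood at 7.46, 7.76 and 7.69 in the chlorothalonil arrays of 24 h and at 2.56, 2.53 and 2.99 in those of 72 h, with DMSO at 2.45 to 2.57 throughout. It fell at least 12.4-fold (adjusted p of the change of effect 1.81e-09). Ccl7, a related chemokine, fell at least 2.66-fold to background and Il1rl1, the receptor of interleukin 33, at least 3.91-fold. Gpr15lg, the ligand of the receptor GPR15, fell from 7.56, 6.84 and 6.95 to 2.33, 2.82 and 4.16, with 1 of 3 arrays of 72 h above background. Over the 17 inflammatory and NF-kB genes tested, 7 had a lower effect and 5 a higher one, near the 29.8% and 27.9% of all genes, with a median change of −0.40 (0.004 on the poly-A scale). Serpinb2, an inhibitor of plasminogen activators, and Plcd4, a phospholipase C, fell 13.0-fold and 10.1-fold under chlorothalonil and remained above background at 72 h on all 3 arrays, while DMSO arrays were at background at both times.

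Inhba, a subunit of the growth factor activin A, changed sides on its brightest probe set. Chlorothalonil arrays went from 5.37, 6.27 and 6.13 to 3.96, 3.08 and 2.92, which is at background, and DMSO arrays from 3.29, 3.79 and 2.97, also at background, to 5.27, 5.64 and 5.49. It fell at least 3.79-fold under chlorothalonil and rose at least 2.76-fold in DMSO, and no arrays of the groups compared overlapped. Its change of effect was −4.72 (SE 0.39, adjusted p = 1.5e-07), or −3.39 with background set to log2 4. A second probe set of the gene, with a mean of log2 3.3 over all arrays, gave −1.08. On it the chlorothalonil arm was at −1.443 and the DMSO arm at −0.364 (log2), so the rise in DMSO was not seen there.

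Of the 27 lists, ribosome biogenesis had the largest share of genes with a lower effect at 72 h. Its genes make ribosomal RNA and assemble ribosomes in the nucleolus. Of 36 genes, 33 had a lower effect at 72 h and 0 a higher one, against 29.8% and 27.9% of all genes. The chlorothalonil arm fell in 35 of 36, with a median of −1.02 (log2), while in DMSO 11 rose and 6 fell, with a median of 0.12 (−0.11 on the poly-A scale). All 36 were above DMSO at 24 h and 22 at 72 h, when 4 were below it, with median effects of 1.52 and 0.38. On the poly-A scale 10 genes were called, all lower, with a median change of −0.74 in place of −1.14 and median effects of 0.44 and −0.29.

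Bop1, a processing factor of the large subunit, fell from 10.16, 9.98 and 9.85 to 8.32, 8.44 and 8.39 under chlorothalonil and rose from 8.21, 8.39 and 8.10 to 8.55, 8.62 and 8.72 in DMSO. Treated arrays were all above DMSO at 24 h and all below it at 72 h, a change of effect of −2.01 (SE 0.14, adjusted p = 1.91e-08). Noc2l, another nucleolar assembly protein, fell from 9.68, 9.81 and 9.77 to 8.32, 8.32 and 8.36, and its treated and DMSO arrays overlapped at 72 h. For Nop56, a core protein of the particles that methylate ribosomal RNA, the chlorothalonil arm fell from between 11.94 and 12.09 to between 10.65 and 10.72 and remained above DMSO (10.30, 10.22 and 10.15). Its change of effect of −1.18 was −0.78 on the poly-A scale (adjusted p = 0.273). The cytosolic ribosomal proteins did not share this fall: of 19 tested, 1 (Rps9) was lower (poly-A scaled adjusted p = 0.994) and 0 were higher, with a median change of −0.07.

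The proteasome came down in both arms, and further under chlorothalonil. Of 36 subunits and helpers, 24 had a lower effect at 72 h and 0 a higher one, against 29.8% and 27.9% of all genes. The chlorothalonil arm fell in 35 and the DMSO arm in 29, with medians of −0.75 and −0.38 (log2), and the larger move was under chlorothalonil in all 24 called. All 6 ATPases of the 19S cap fell in both arms and 5 were called. At 72 h 30 of the 36 were still above DMSO. Psmd3, a 19S subunit, fell from 11.86, 11.75 and 11.69 to 10.06, 10.33 and 10.28 under chlorothalonil and from 10.21, 10.27 and 10.20 to 9.76, 9.81 and 9.91 in DMSO (change of effect −1.15, SE 0.10, adjusted p = 2.96e-07). On the poly-A scale 0 of 36 were called, with a median change of −0.02, median effects of −0.24 and −0.27 in place of 0.84 and 0.40, and an adjusted p of 0.300 for Psmd3.

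**Figure D3:**
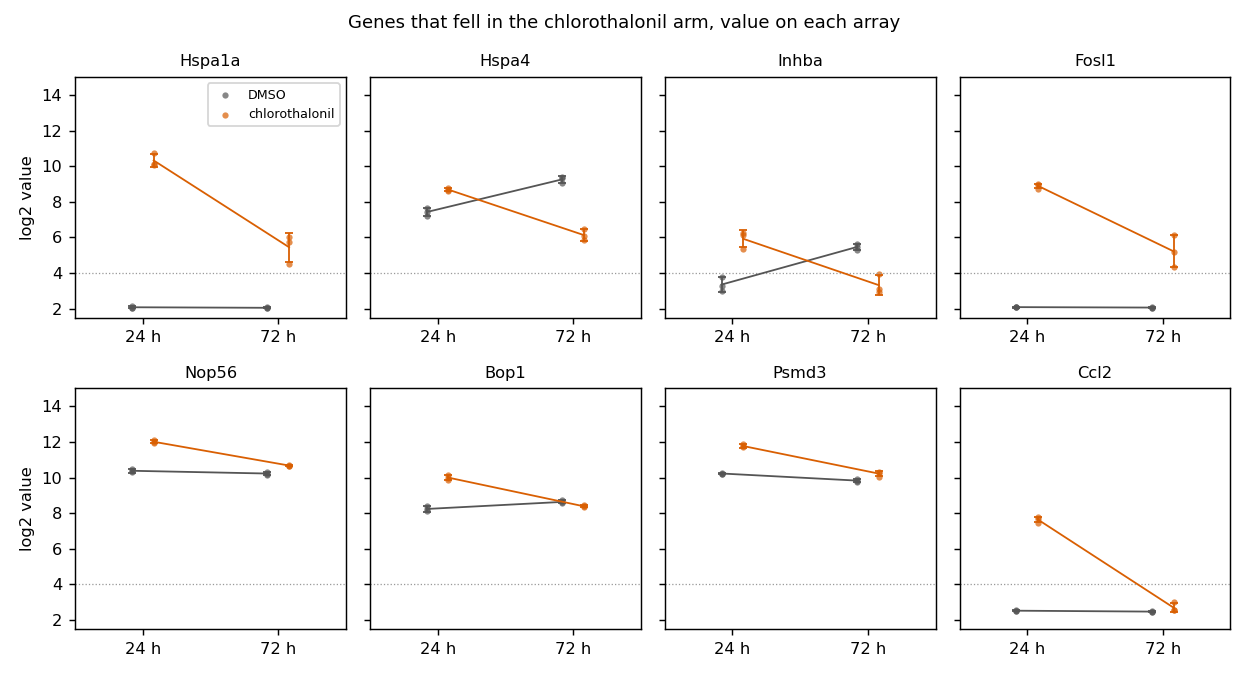
Log2 value on each array (points), with the group mean and SD (lines and bars, n = 3), at 24 h and 72 h for 8 genes that fell in the chlorothalonil arm (orange) with DMSO in grey. The dotted line marks log2 4, the background level. Hspa1a, Fosl1 and Ccl2 are at background in DMSO at both times, and the arms cross for Hspa4, Inhba and Bop1.

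Cholesterol synthesis gave the opposite picture: the effect rose while the DMSO arrays fell. Of 22 genes of cholesterol synthesis and uptake, 20 had a higher effect at 72 h and 0 a lower one, against 27.9% and 29.8% of all genes. The DMSO arm fell in 21 of 22 (24.3% of all genes did), with a median of −2.98 (log2), and the chlorothalonil arm in 13, with a median of −0.40, and the larger move was in DMSO for all 20 called. All 22 were below DMSO at 24 h, with a median effect of −1.79. At 72 h 17 were above DMSO and 2 below, with a median of 0.56. All 20 were also called on the poly-A scale, where the median effect at 72 h was −0.11 and its sign thus turned.

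The first steps, from acetyl-CoA to squalene, were called in 8 of 8 tested. Mvd, which makes isopentenyl diphosphate, stood at log2 11.46, 11.62 and 11.43 in DMSO at 24 h and at 6.55, 6.71 and 6.36 at 72 h, a 31.3-fold fall. The chlorothalonil arm fell 1.86-fold, from 8.67, 8.49 and 8.43 to 7.20, 7.89 and 7.81. Treated arrays were all below DMSO at 24 h and all above it at 72 h, a change of effect of 4.07 (SE 0.20, adjusted p = 8.18e-10). Sqle, squalene epoxidase, fell from 12.82, 13.02 and 12.86 to 9.93, 9.92 and 10.00 in DMSO and from 11.10, 11.26 and 11.15 to 10.04, 10.37 and 10.26 under chlorothalonil.

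The later steps, from lanosterol to cholesterol, were called in 9 of 9. Tm7sf2, a sterol C14 reductase, fell 18.1-fold in DMSO, from 11.46, 11.60 and 11.41 to 7.30, 7.15 and 7.48, and its chlorothalonil arrays overlapped between the times, at 6.78, 7.27 and 7.16 and then 6.48, 7.01 and 6.39. Dhcr7, the last reductase of the pathway, fell from 11.99, 11.94 and 11.83 to 8.92, 8.74 and 8.63 in DMSO but rose from 9.22, 9.19 and 9.10 to 9.64, 9.82 and 9.87 under chlorothalonil. Insig1, the sterol-sensing protein that holds SREBP back, went from 13.19, 13.15 and 13.14 to 10.56, 10.61 and 10.44 in DMSO and from 11.94, 11.96 and 11.80 to 11.47, 11.66 and 11.65 under chlorothalonil. Fdft1, squalene synthase, had a change of effect of 2.59, and a second probe set gave 0.90.

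Fatty acid synthesis moved the same way. Of 16 genes, 12 had a higher effect at 72 h and 0 a lower one, against 27.9% and 29.8% of all genes. The DMSO arm fell in 14 (24.3% of all genes did), with a median of −1.77 (log2) against −0.03 under chlorothalonil (0.15 on the poly-A scale). All 12 were called on the poly-A scale. Scd, the stearoyl-CoA desaturase, was above background in DMSO at 24 h alone: 6.51, 6.73 and 6.62, then 2.42, 2.42 and 2.43, with the chlorothalonil arrays at 2.39 to 2.49 at both times. It fell at least 6.15-fold in DMSO and its change of effect was 4.23 (SE 0.077, adjusted p = 1.66e-14), or 2.62 with background set to log2 4. Acss2, which makes acetyl-CoA from acetate, fell 10.2-fold in DMSO, from 12.52, 12.61 and 12.52 to 9.29, 9.18 and 9.14, and rose 1.504-fold under chlorothalonil, from 9.12, 9.37 and 9.34 to 9.78, 9.93 and 9.89. Fasn, fatty acid synthase, fell 4.81-fold in DMSO to 9.80, 9.70 and 9.84, where it overlapped the chlorothalonil arrays (9.78, 9.57 and 9.53). For Fads1, the delta-5 desaturase, the arms moved in opposite directions, 3.42-fold down in DMSO and 2.76-fold up under chlorothalonil.

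The promoters of the sterol genes were read in the same 250 bases. The motif TCACNCCAC, letters of a sterol regulatory element, was in 0 of 18 of these windows, in 1.0% of all tested genes with a promoter and in 1.0% of all promoters. The letters CCAAT, the CCAAT box bound by the factor NF-Y, were in 13 of 18 (72.2%), against 36.8% of the tested genes and 34.3% of all promoters. A window without these letters says nothing of the factor. They are shown in capitals, on either strand, for the pair with the largest change of effect that holds them. Mvd lies at chr19:67414975-67415224 and Tm7sf2 at chr1:212789542-212789791, both on the minus strand.
Mvd: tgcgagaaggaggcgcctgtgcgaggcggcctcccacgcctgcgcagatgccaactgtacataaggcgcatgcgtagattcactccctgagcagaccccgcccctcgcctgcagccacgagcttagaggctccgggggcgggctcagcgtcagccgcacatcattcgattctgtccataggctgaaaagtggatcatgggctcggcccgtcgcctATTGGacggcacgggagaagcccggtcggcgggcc
Tm7sf2: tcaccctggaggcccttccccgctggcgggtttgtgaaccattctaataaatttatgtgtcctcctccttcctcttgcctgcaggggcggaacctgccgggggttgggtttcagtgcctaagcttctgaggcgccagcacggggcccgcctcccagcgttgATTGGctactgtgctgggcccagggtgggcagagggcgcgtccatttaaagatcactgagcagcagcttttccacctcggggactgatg

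Genes of mitosis turned from below DMSO to above it. Of 37 genes, 31 had a higher effect at 72 h and 1 a lower one, against 27.9% and 29.8% of all genes. The chlorothalonil arm rose in 32 (39.5% of all genes did) and fell in 2, while the DMSO arm fell in 18 and rose in 4, and the larger move was under chlorothalonil for 30 of the 32 called. At 24 h 26 were below DMSO and 3 above, and at 72 h 34 were above and 0 below, with median effects of −0.45 and 0.69 (log2). On the poly-A scale 28 were called, all higher, and the median effect at 72 h was 0.02.

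Top2a, the topoisomerase of dividing cells, rose from log2 9.39, 9.29 and 9.59 to 11.51, 11.54 and 11.44 under chlorothalonil. In DMSO its arrays lay between 10.82 and 11.20 at both times and overlapped, and the change of effect was 1.96 (SE 0.13, adjusted p = 1.29e-08). Cenpf, a kinetochore protein, rose from 8.82, 8.46 and 8.67 to 11.18, 11.03 and 11.06, past the DMSO level (10.72, 10.71 and 10.71). Cdk1, the kinase that drives entry into mitosis, rose from 11.68, 11.68 and 11.83 to 13.38, 13.40 and 13.44 under chlorothalonil and from 12.55, 12.62 and 12.43 to 12.78, 12.73 and 12.68 in DMSO. Mki67, a marker of proliferation, was not called (change of effect 0.19, adjusted p = 0.239), with chlorothalonil arrays at 11.44, 11.41 and 11.47 and then 11.98, 11.79 and 11.80.

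Of the cell division genes outside the list, 3 were named for being among the 12 highest changes of effect. Cdkn3, a phosphatase that acts on cyclin-dependent kinases, rose 5.35-fold under chlorothalonil, from 9.59, 9.27 and 9.55 to 11.82, 11.98 and 11.87, and fell 4.40-fold in DMSO, from 11.69, 11.72 and 11.69 to 9.51, 9.56 and 9.61. The 2 arms had nearly traded places, with a change of effect of 4.56 (SE 0.10, adjusted p = 1.81e-13). Pimreg, a protein of mitotic cells, rose 12.6-fold under chlorothalonil, from 6.45, 5.51 and 6.60 to 9.79, 9.81 and 9.93, and fell 3.74-fold in DMSO. Cit, the citron kinase of cytokinesis, rose 10.3-fold under chlorothalonil and fell 1.74-fold in DMSO.

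DNA replication moved less: of 38 genes, 18 had a higher effect and 2 a lower one, against 27.9% and 29.8% of all genes. The median effects were 0.39 and 0.60 (−0.69 and −0.07 on the poly-A scale). Mcm7, a subunit of the replicative helicase, went the other way, from 11.57, 11.23 and 11.46 to 9.86, 9.95 and 9.98 under chlorothalonil with DMSO at 10.37 to 10.70 throughout. Mcm2 of the same helicase was not called (change of effect −0.20, adjusted p = 0.220). Among 18 p53 targets 8 were higher and 1 lower, against the same shares of all genes. Gadd45a, a growth arrest protein, fell 3.40-fold in DMSO and its chlorothalonil arrays overlapped between the times. Cdkn1a, the inhibitor p21, had a change of effect of 0.33 (adjusted p = 0.0393) with neither arm called on its brightest probe set. It lost the call without any 1 of 8 arrays and with a replicate block within each time (adjusted p = 0.0555). The call was also lost with no filter (0.0512), with the mean of its probe sets (0.0872) and on the poly-A scale (0.307). On a second Cdkn1a probe set the chlorothalonil arm was at −1.496 and the DMSO arm at −2.232 (log2), with a change of effect of 0.736 (adjusted p = 0.206). Mdm2, the p53 ligase, was not called (adjusted p = 0.323): both arms fell, 2.18-fold and 1.99-fold. Of its other probe sets, 1 was called (−0.365, adjusted p = 0.00338) and 1 was not (0.361).

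In the 250 bases before the start, 23 of 32 mitosis genes held the letters CCAAT (71.9%, against 36.8% of tested genes) and 14 held TTTGAA, letters of the cell cycle homology region at which late cell cycle genes are held off in resting cells (43.8%, against 9.9% of tested genes and 4402 of all 27457 promoters). Both motifs are in capitals, on either strand, for the 2 list members with the largest change of effect that hold the second. Cdc20, the activator of the anaphase-promoting complex, lies at chr5:137255800-137256049 and Top2a at chr10:84473094-84473343, both on the minus strand.
Cdc20: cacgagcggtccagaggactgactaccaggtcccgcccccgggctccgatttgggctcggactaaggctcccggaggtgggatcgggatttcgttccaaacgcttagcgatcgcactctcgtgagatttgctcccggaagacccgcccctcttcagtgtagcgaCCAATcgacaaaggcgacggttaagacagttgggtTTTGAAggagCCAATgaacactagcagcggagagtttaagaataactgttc
Top2a: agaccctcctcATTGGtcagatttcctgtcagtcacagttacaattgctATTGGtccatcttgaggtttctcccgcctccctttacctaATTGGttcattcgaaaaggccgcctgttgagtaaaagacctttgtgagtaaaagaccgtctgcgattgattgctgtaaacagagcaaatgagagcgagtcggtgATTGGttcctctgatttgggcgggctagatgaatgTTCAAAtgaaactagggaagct

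**Figure D4:**
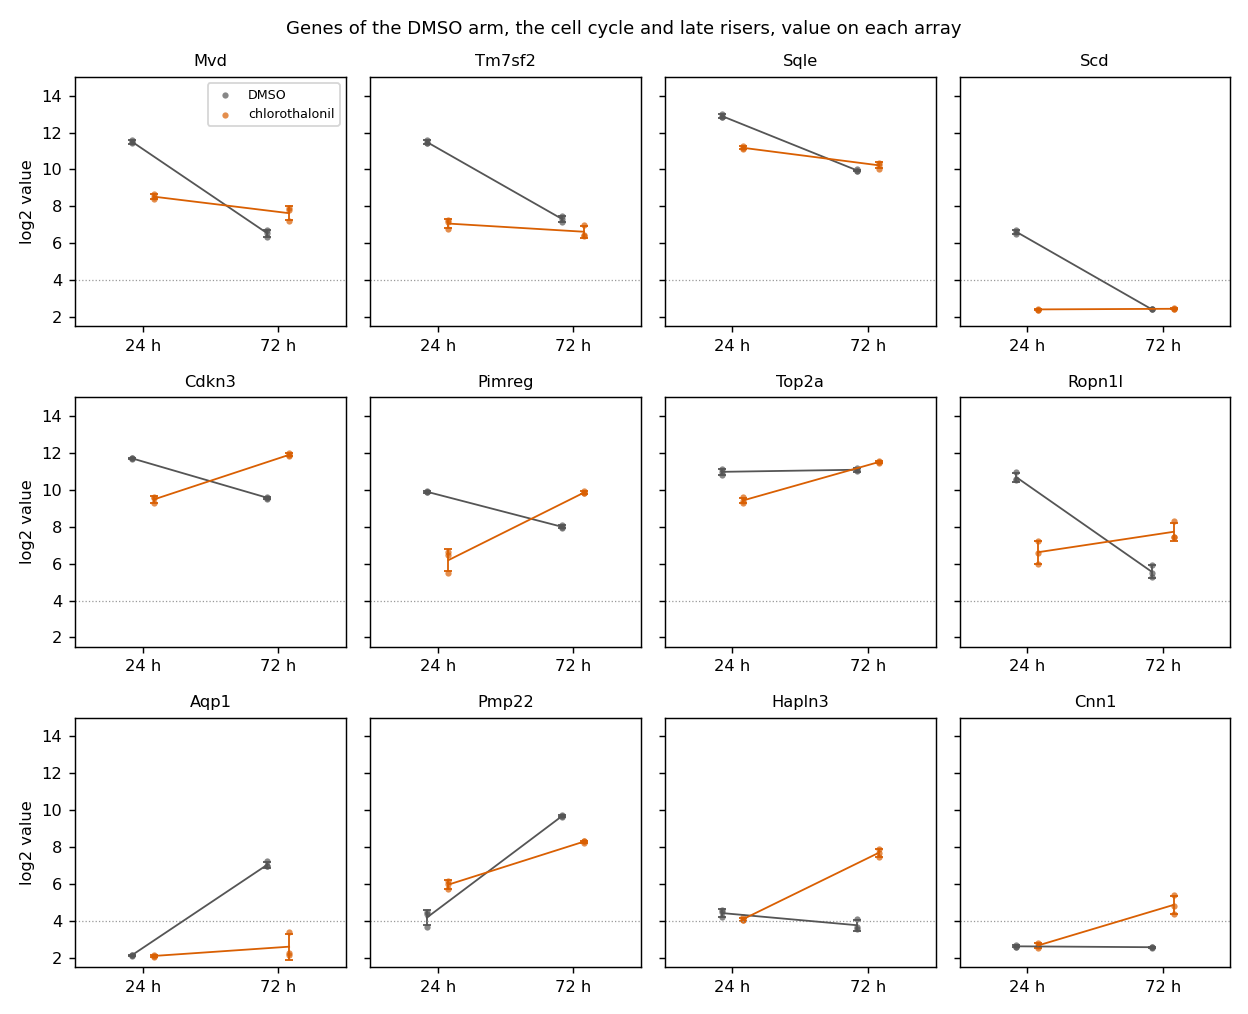
Log2 value on each array (points), with the group mean and SD (n = 3), for 12 genes, chlorothalonil in orange and DMSO in grey; the dotted line marks log2 4. In the top row (sterol and fatty acid genes) the DMSO arm falls, in the middle row the chlorothalonil arm rises and crosses DMSO, and in the bottom row Aqp1 and Pmp22 rise more in DMSO and Hapln3 and Cnn1 rise under chlorothalonil.

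In the amino acid response under the factor ATF4 both arms came down. Of 37 genes, 33 fell in the chlorothalonil arm and 30 in DMSO, with medians of −1.03 and −0.80 (log2). The effect was higher at 72 h in 8 and lower in 17, against 27.9% and 29.8% of all genes. At each time 32 were above DMSO, against 39.1% of all genes at 24 h and 37.2% at 72 h. The median change was −0.18, or 0.22 on the poly-A scale, where the median effects were −0.11 and 0.18 in place of 0.97 and 0.85. Trib3, a pseudokinase induced by ATF4, fell 14.4-fold in DMSO, from 8.58, 9.01 and 8.60 to 4.94, 4.44 and 5.27, and 2.17-fold under chlorothalonil, from 10.11, 10.00 and 10.20 to 9.15, 8.97 and 8.84, so its effect rose by 2.73 (SE 0.25, adjusted p = 3.26e-07). Its other 2 probe sets gave 1.60 and 2.13. Asns, asparagine synthetase, likewise fell 4.21-fold in DMSO and 1.83-fold under chlorothalonil. Ddit3, the factor CHOP, fell more under chlorothalonil, 2.28-fold against 1.63-fold, a change of effect of −0.48 that was −0.08 on the poly-A scale (adjusted p = 0.940). Slc7a11, the cystine transporter, fell at least 9.45-fold to background under chlorothalonil and at least 1.80-fold in DMSO.

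Of 26 NRF2 targets, 6 had a higher effect and 10 a lower one, against 27.9% and 29.8% of all genes. The median change was 0.015 (0.42 on the poly-A scale). Among 8 genes of glutathione and thioredoxin 6 were lower and 0 higher, and all 8 fell under chlorothalonil. Among 5 genes of NADPH supply and quinone reduction 3 were higher and 1 lower, among 10 of conjugation, carbonyl reduction and efflux 2 were higher and 3 lower, and among 3 of heme and iron 1 was higher and 0 lower. The counts of each role are to be read against the same shares of all genes, and the difference between these roles was not tested. Nqo1, a quinone reductase, fell in DMSO from 12.50, 12.55 and 12.50 to 11.39, 11.43 and 11.48, and under chlorothalonil from 12.46, 12.63 and 12.49 to 12.17, 12.28 and 12.09, and its effect went from 0.01 to 0.74 (poly-A scaled adjusted p of the change 0.0749). Ephx1, microsomal epoxide hydrolase, rose 13.0-fold under chlorothalonil, from 7.19, 7.13 and 7.64 to 11.10, 11.05 and 10.92, and 1.44-fold in DMSO, a change of effect of 3.18 (SE 0.19, adjusted p = 5.61e-09).

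Hmox1, the heme-degrading enzyme, is a gene with a very large effect whose change was not called. It stood at log2 11.33, 10.75 and 10.95 under chlorothalonil and 5.66, 5.56 and 5.29 in DMSO at 24 h, and at 8.99, 8.99 and 9.14 against 3.75, 3.67 and 3.78 at 72 h. The chlorothalonil arm fell 3.92-fold and the DMSO arm at least 2.83-fold to background. The change of effect was −0.20 (SE 0.20, adjusted p = 0.398). As the DMSO arrays of 72 h were at background, the size of the effect at 72 h and of its change rests on values below log2 4.

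Many genes of the endoplasmic reticulum and of sugar breakdown fell in DMSO. Of 27 genes of the unfolded protein response, 17 had a higher effect at 72 h and 2 a lower one, against 27.9% and 29.8% of all genes. The DMSO arm fell in 19 (24.3% of all genes did) and the chlorothalonil arm in 9, near the 33.3% of all genes. On the poly-A scale 5 were higher and 0 lower. Hspa5, the chaperone BiP, fell in DMSO from 15.17, 15.15 and 15.10 to 14.72, 14.67 and 14.59 and lay at 14.98 to 15.10 under chlorothalonil at both times, a change of effect of 0.56 (poly-A scaled adjusted p = 0.150). Xbp1, a factor of the same response, instead rose under chlorothalonil, from 10.15, 10.14 and 10.21 to 11.45, 11.38 and 11.32. Derl1, which moves misfolded proteins out of the reticulum, had a change of effect of 1.502, but its other 2 probe sets gave −0.05 and 0.24. Of 28 genes of glycolysis and hypoxia 16 were higher and 2 lower (3 and 0 on the poly-A scale). In DMSO 22 fell and under chlorothalonil 18, to be read beside the same shares of all genes. Gapdh, a glycolytic enzyme, fell by 1.35 in DMSO and by 0.90 under chlorothalonil on the log2 scale (change of effect 0.45, poly-A scaled adjusted p = 0.215). Aldoc, an aldolase, stood at 8.97, 8.56 and 8.33 in DMSO at 24 h and at 3.51, 3.62 and 4.20 at 72 h, and at 4.84 to 5.95 under chlorothalonil, where its arrays overlapped between the times.

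Matrix genes rose in both arms. Of 35, 28 rose under chlorothalonil and 22 in DMSO, against 39.5% and 36.3% of all genes. The effect was higher at 72 h in 18 and lower in 10 (6 and 5 on the poly-A scale), against 27.9% and 29.8% of all genes. Col3a1, a fibrillar collagen, rose 15.2-fold in DMSO, from 10.49, 10.47 and 10.64 to 14.37, 14.46 and 14.53, and 4.66-fold under chlorothalonil, from 8.83, 8.86 and 9.29 to 10.92, 11.38 and 11.34. Its effect thus grew from −1.54 to −3.24, and Col12a1, a fibril-associated collagen, rose 10.0-fold in DMSO and 1.88-fold under chlorothalonil. Timp3, an inhibitor of matrix proteases, moved under chlorothalonil alone on its brightest probe set, 9.24-fold up. Its other 2 probe sets gave changes of effect of 2.66 and 3.96, with the DMSO arm at −0.771 and 0.822 (log2). Col1a1, the main fibrillar collagen, had a change of effect of −0.86 (adjusted p = 0.00707), but its second probe set gave −0.06, and the call was lost with the mean of both (−0.46, adjusted p = 0.0754) and on the poly-A scale (−0.456, adjusted p = 0.571). Cd44, the hyaluronan receptor and a marker of injured tubules, fell 5.31-fold in DMSO while its chlorothalonil arm was not called (adjusted p = 0.0631), and its effect rose from 1.77 to 3.90.

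Some transcripts appeared late in DMSO and not, or less, under chlorothalonil. Aqp1, the water channel of the proximal tubule, was above background in DMSO at 72 h alone, at 6.95, 7.22 and 6.95 against 2.13, 2.11 and 2.17 at 24 h, and at 2.27, 3.40 and 2.12 under chlorothalonil at 72 h. It rose at least 8.23-fold in DMSO (change of effect −4.40, SE 0.31, adjusted p = 2.99e-08, or −3.04 with background set to log2 4). Of the genes with a called change of effect, 17 were above background in DMSO at 72 h alone, each on all 3 arrays. The filter kept only probe sets above log2 4 on at least 3 arrays of the series. Such a gene thus passed only with all 3 arrays of its group, unless arrays of 6 h were also above log2 4. Being above it on all 3 arrays is therefore no measure of agreement between replicates. Among the 17 genes was Hlf, a circadian factor, at a mean of log2 6.55 (SD 0.13, n = 3). Gk, glycerol kinase, rose at least 12.004-fold in DMSO, to a mean of 7.59 (SD 0.46), and was at 4.26, 4.19 and 4.27 under chlorothalonil at 72 h. At 24 h its arrays were at background, save 1 of 3 under chlorothalonil. Cxcl13, a chemokine for B cells, rose 10.9-fold in DMSO and was at background under chlorothalonil at both times. Pmp22, a membrane protein of growth-arrested cells, rose in both arms, 45.6-fold in DMSO to 9.64, 9.74 and 9.66 and 5.02-fold under chlorothalonil to 8.32, 8.32 and 8.22. A second probe set of Pmp22 gave −1.39 for the change of effect in place of −3.18, with an adjusted p of 0.0502. Serping1, the C1 inhibitor of complement, rose at least 9.51-fold in DMSO and reached 4.11, 4.06 and 3.78 under chlorothalonil.

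Other transcripts came late under chlorothalonil. Hapln3, a link protein of the hyaluronan matrix, rose 12.04-fold, from 4.02, 4.18 and 4.07 to 7.90, 7.68 and 7.47, while DMSO went from 4.58, 4.20 and 4.48 to 3.64, 4.08 and 3.55. Its effect at 24 h was −0.33 (adjusted p = 0.0834) and at 72 h 3.92. Cd68, a lysosomal glycoprotein, rose 21.4-fold from 4.46, 5.63 and 5.00 to 9.52, 9.61 and 9.23, while DMSO went from background to 3.39, 4.32 and 4.02, with a mean still below log2 4. Cnn1, a smooth muscle calponin, was above background in the chlorothalonil arrays of 72 h alone (5.37, 4.81 and 4.39), where it rose at least 1.81-fold. Of the genes with a called change of effect, 20 were above background in the chlorothalonil arrays of 72 h alone (19 on all 3 arrays). That was so for 52 in those of 24 h alone (41 on all 3) and for 6 in the DMSO arrays of 24 h alone. Here too the counts on all 3 arrays were largely set by the filter and do not measure agreement between replicates. Creb5, a CREB family factor, rose 7.80-fold to 8.24, 7.83 and 8.46 on its brightest probe set, and its other 3 probe sets were not called (0.322 to 0.996).

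Of the genes named, Ropn1l, a protein of cilia and flagella, had the largest rise of effect. It fell 34.8-fold in DMSO, from 10.52, 10.57 and 10.94 to 5.25, 5.48 and 5.93, and rose 2.15-fold under chlorothalonil, from 6.00, 6.60 and 7.25 to 8.28, 7.46 and 7.42 (change of effect 6.23, SE 0.43, adjusted p = 2.38e-08). Rnf157, a ubiquitin ligase, rose 14.0-fold under chlorothalonil and fell 2.498-fold in DMSO. Zc3h6, a zinc finger protein, rose 15.8-fold under chlorothalonil and fell 1.39-fold in DMSO. On the other side Dhrs4, a carbonyl reductase, fell 14.8-fold under chlorothalonil, from 8.22, 8.07 and 8.31 to 4.34, 4.29 and 4.30, while its DMSO arrays overlapped between the times at 6.04 to 7.05.

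**Figure D5:**
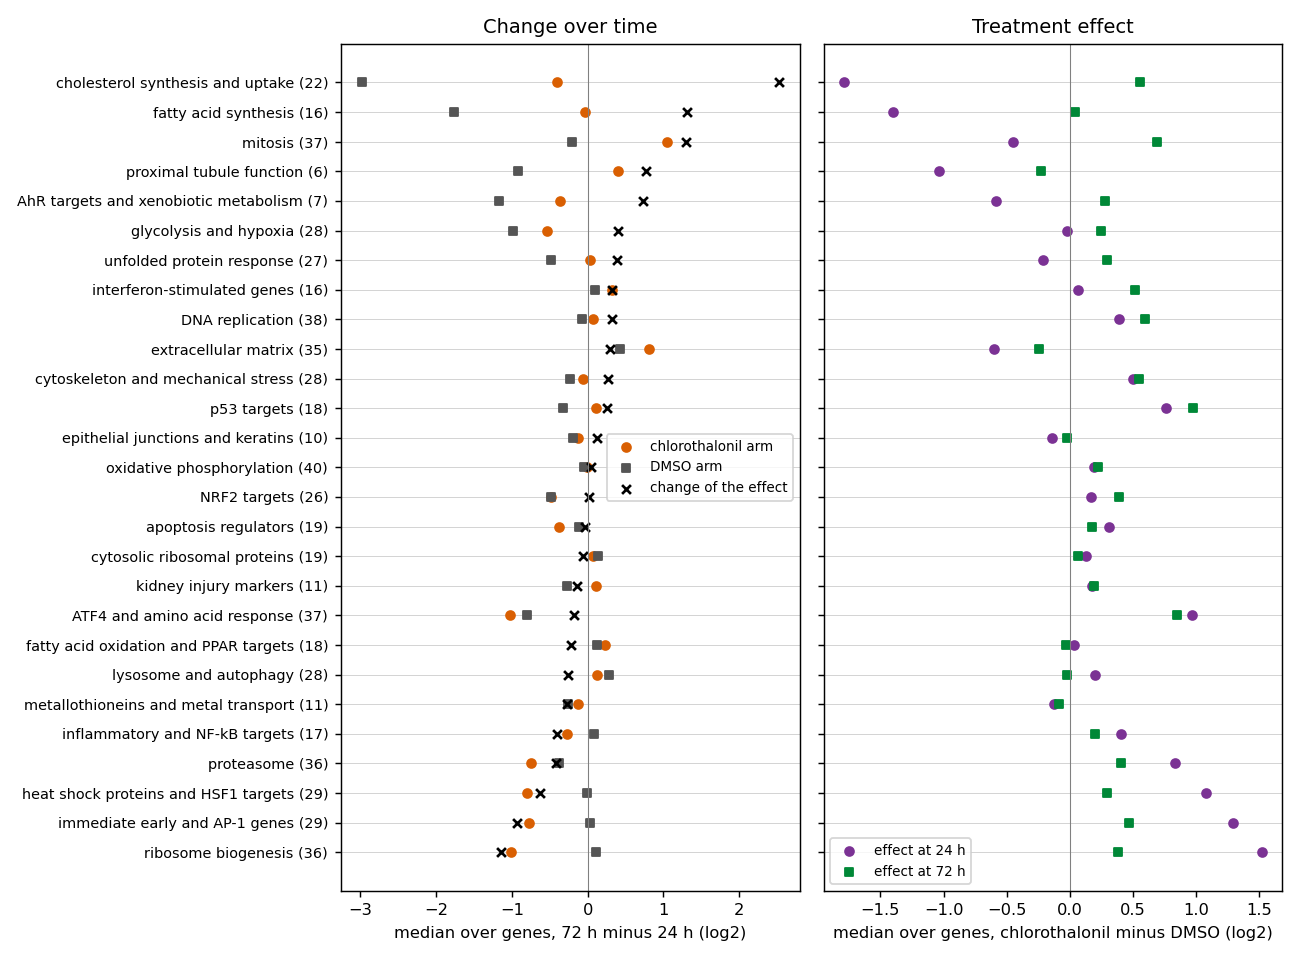
Medians over the tested genes of each of 27 gene lists (number of genes in brackets). The left panel shows the change from 24 h to 72 h in each arm and their difference, the change of effect, and the right panel the treatment effect at each time, all in log2. Cholesterol synthesis lies at the top, where the DMSO arm fell by 2.98, and ribosome biogenesis at the bottom, where the chlorothalonil arm fell by 1.02.

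The remaining lists were as follows. Over all genes the median change was −0.015, with 27.9% of genes higher and 29.8% lower. Oxidative phosphorylation had 9 higher and 9 lower of 40 (median 0.05), both below these shares. Calls in both directions were also found for apoptosis regulators (4 and 7 of 19, −0.03), fatty acid oxidation (5 and 8 of 18, −0.22) and lysosome and autophagy genes (4 and 13 of 28, −0.26). Interferon-stimulated genes had 7 higher and 3 lower of 16 (median 0.32), the cytoskeleton list 16 and 7 of 28 (0.27), kidney injury markers 4 and 5 of 11 (−0.14), junctions and keratins 2 and 4 of 10 (0.13) and metal-handling genes 0 and 4 of 11 (−0.27). On the poly-A scale the medians of the apoptosis, fatty acid oxidation, lysosome, kidney injury and metal-handling lists and of the cytosolic ribosomal proteins were above 0. Leaving out 1 array moved several of these medians: that of interferon-stimulated genes to 0.137 without chlorothalonil replicate 1 at 24 h, that of metal-handling genes to −0.051 without DMSO replicate 3 at 24 h and that of apoptosis regulators to 0.022 without chlorothalonil replicate 1 at 72 h. The NRF2 median lay between −0.072 without DMSO replicate 1 and 0.089 without chlorothalonil replicate 1 at 72 h, the cytosolic ribosomal protein median was −0.031 without the latter, and those of junctions and oxidative phosphorylation fell to 0.08 and 0.023 without DMSO replicate 1 at 72 h, while the latter reached 0.071 without DMSO replicate 2. Of 6 tested genes of proximal tubule function 4 were higher and 1 lower (median 0.77), among them Gatm, which makes a creatine precursor and fell 5.93-fold in DMSO, and Slc4a4, a bicarbonate transporter that rose 3.07-fold under chlorothalonil and fell 1.98-fold in DMSO. Of 7 xenobiotic metabolism genes 3 were higher and 0 lower (median 0.74), led by Ephx2, soluble epoxide hydrolase, which rose 8.74-fold under chlorothalonil and fell 1.49-fold in DMSO.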

How the data were processed

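RNA of 18 cultures was hybridized to Affymetrix rat arrays. The authors deposited 31099 log2 values per array, and the submitters' processing notes name GCRMA, whose version is not given in the sources used here. Total RNA (6 µg) was labelled with biotin per the labels' protocols. GCRMA in its standard form models background and normalizes arrays to a common distribution, which takes out a change shared by most transcripts, and the number of arrays limits the precision. Nothing states whether cultures of 1 group were independent beyond the label "biological", so p-values measure the spread between these arrays.

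A probe set was kept where log2 exceeded 4 on at least 3 of 18 arrays (16686 probe sets, 12693 of them with 1 gene symbol). Symbols came from the platform annotation, updated through the RefSeq table of GRCr8. A gene is its probe set with the highest mean (9149 genes, 2600 with more than 1 probe set). limma 3.58.1 in R 4.3.3 fitted a mean for each of the 6 groups of the series to 18 arrays (12 residual and 2.76 prior degrees of freedom), with two-sided tests adjusted by Benjamini-Hochberg over 9149 genes at 0.05. The 6 h arrays add only to the estimate of spread. A group with all 3 arrays at log2 4 or less was at background, and folds against it are bounds from log2 4, given only where the other group's mean exceeds 4. Fold changes are on the deposited scale. The fit was tested on simulated data.

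Genes were named by rule: the 12 highest and 12 lowest called changes of effect with a curated symbol and not at background in 3 or more groups, 4 per direction of each arm class and of effects of opposite sign, the 4 members of each list with the smallest p, and a fixed set, of which some genes are not reported here. Hlf and the counts by background are outside that rule and were chosen after values were seen. The comparison, the 27 lists and the rule were chosen with earlier results of these data known. Promoters are RefSeq's.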

Additional observations from a re-analysis of the deposited data

Results flagged for a closer look

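The test of the difference between the effects at 24 h and 72 h was passed by 5274 genes, and 1059 of them had effects of opposite sign at the 2 times. Those with the largest change of effect in each direction, in log2, were Ropn1l (6.23), Pimreg (5.56), Aldoc (5.30) and Rnf157 (5.12), which went from below DMSO to above it. Inhba (−4.72), Hspa4 (−4.39), Gk (−4.35) and Dhrs4 (−3.88) went from above DMSO to below it. For Gk the level above DMSO at 24 h rests on values at background on all but 1 of 6 arrays, and with group means below log2 4 set to 4 its change was −3.35. On a second Inhba probe set the change was −1.08, with the DMSO arm at −0.364. Of these 8, the larger move was in DMSO for Ropn1l, Aldoc and Gk and in the chlorothalonil arm for the other 5.

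The results by gene use no probe set that has several gene symbols or lacks one. Fitted with all probe sets that passed the filter, 1813 of 3946 such probe sets (45.9%) had a changed effect, 867 higher and 946 lower, against 52.4% of the 12688 probe sets with 1 symbol.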

How the results depend on the processing

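Between 4994 and 5549 genes were called under every setting other than poly-A scaling, with leave-one-out counts of 4994 to 5146. Whether the replicate numbers pair the samples is not given. The deviations of same-numbered arrays correlated with r above 0.1 in 3 of 6 pairs (r from −0.044 to 0.305, against −0.224 to 0.213 for other pairs). Deviations are from the mean of each group, so the 2 ranges are not independent. With 3 arrays per group these values cannot settle it. A replicate block within each time gave 5240 calls, or 5202 with 1 number across times. Poly-A scaling called 1469 genes (1253 higher, 216 lower), 2962 in the chlorothalonil arm, 1393 in the DMSO arm and 3776 for the effect at 72 h. The arm classes there were 883 chlorothalonil alone, 290 DMSO alone, 115 both one way and 101 both opposite ways. The effect classes were 930 at 24 h alone, 138 at 72 h alone, 216 and 53 with 1 sign and larger at 24 h and at 72 h, 126 of opposite sign and 6 at neither. Leaving out 1 array at a time under poly-A scaling, chosen after seeing the data, gave 987 to 2707 calls: 2181 without DMSO replicate 1 and 2707 without DMSO replicate 3 at 24 h, and 987 without chlorothalonil replicate 1 at 24 h. Genes with neither arm called numbered 40 with array weights and 40 to 62 when 1 array was left out (40 without DMSO replicate 1 at 72 h). With a 2-fold rule the DMSO arm alone held 413, both one way 192, both opposite ways 26 and neither 3388. Of the 173 named genes, 163 were called on the deposited scale. Of all 173, 112 kept their call, or their lack of one, under every setting that tested them. Leaving out 1 array under poly-A scaling was not among these settings. The sign of the change turned for Tfrc (0.107), Slc39a1 (0.135) and Cd14 (0.052) under poly-A scaling and for Cflar (0.054) with no filter, where another probe set stands for the gene; the cause of the poly-A differences was not tested.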
